A study of Solanum lycopersicum and Solanum tuberosum and Capsicum annuum and Nicotiana tabacum with 10 samples.

Results

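METK1 encodes an S-adenosylmethionine synthetase, the enzyme that joins methionine and ATP into S-adenosylmethionine. On a microarray of potato cDNA clones, 9 of the 15360 clone positions carried METK1 as their single gene symbol in the table of probe genes, of 815 positions with a single symbol. They were taken by that symbol and not by their values, but METK1 was chosen with earlier results of these data known. They are called METK1-A to METK1-I here, in the order of their spots on the slide. Each clone was printed as 2 spots, so 18 spots in all carry the METK1 symbol. The 9 clones share 1 gene symbol and the same arrays, so they are not taken as independent measurements. Whether all of them report on 1 gene was not checked, as clone sequences were not used.

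S-adenosylmethionine is the main methyl donor of plant cells, and methyltransferases use it to make lignin precursors, membrane lipids and methylated DNA. It is also the starting point of ethylene and, after decarboxylation, gives the aminopropyl groups of polyamines. Plants carry several synthetase genes with similar coding sequences, and transcripts of related genes can hybridize to the same cDNA clone. The homocysteine left after methyl transfer is turned back into methionine by methionine synthase.

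RNA from mature leaves of 5 query species (N. benthamiana, tobacco, petunia, tomato and pepper) was labeled with Cy3 and hybridized together with potato leaf RNA labeled with Cy5, on 2 arrays per query species and 10 arrays in all. Plants of all 6 species were untreated and 4 to 6 weeks old, and were kept at 25°C under 16 h of daily light. By their labels, the 5 replicate 1 arrays are taken to share 1 potato extract, and the 5 replicate 2 arrays another. No dye was swapped, and nothing states whether separate plants were used for the 2 arrays of a species. P-values therefore cover only the spread between arrays, which may be technical.

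The measurement is a log2 ratio of the signals of both channels. The sources used here do not state its direction. Positive ratios are read as likely brighter in potato, because the array titles name potato first. A further reason is that the differences between the other query species and tomato were skewed to the positive side. This held in 8 of 8 comparisons, with skewness from 0.03 to 0.62. These comparisons share the tomato arrays, so they are not independent, and the lowest skewness was slight. All probes came from potato. A higher ratio can therefore come from less RNA in the query species or from a poorer match of its transcript to the potato clone, and these cannot be told apart here, nor can a change in RNA per cell and a change in the cells that make up the leaf.

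An array gave values for 9279 to 10439 clones, with a median log2 ratio between -0.08 and -0.02, and the spots of a clone correlated at 0.947 to 0.973 on each array. For METK1, 80 of the 90 possible clone and array values were present and 4 of these rested on 1 spot. METK1-A, METK1-C, METK1-D, METK1-F, METK1-G and METK1-H had a value on all 10 arrays, METK1-I on 9, METK1-B on 8 and METK1-E on 3. The median gap between the 2 spots of a METK1 clone was 0.08 on the log2 scale, against 0.15 over all clones, and the largest was 0.58. Of 15 leaf marker symbols only PSBR, a photosystem II subunit, and TK, taken as transketolase of the Calvin cycle, were found, and 7 of their 8 clones had a value, 4 of them on all arrays. As 10954 of the 15360 positions had a value and no level can be read from a ratio, the tissue could not be checked this way.

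By the median clone, the METK1 log2 ratio was highest in N. benthamiana, followed by tobacco, petunia, tomato and pepper. The median over clones with a value on both arrays was 1.41 in N. benthamiana (7 clones, 0.76 to 1.86), 1.08 in tobacco (8 clones, 0.73 to 1.21), 0.58 in petunia (8 clones, 0.23 to 0.90), 0.34 in tomato (6 clones, -0.04 to 0.67) and -0.25 in pepper (9 clones, -0.64 to 0.06). By the median clone, METK1 signal was likely 2.65-fold higher in potato than in N. benthamiana, 2.12-fold higher than in tobacco, and 1.19-fold lower than in pepper. The SD of the median between the 2 arrays of a species was 0.41 for N. benthamiana, 0.35 for tobacco, 0.43 for petunia, 0.07 for tomato and 0.15 for pepper. Single arrays moved some of these medians: the petunia median was 0.943 without replicate 1 and 0.331 without replicate 2, which is below the tomato median. The pepper median was -0.382 without its replicate 2 and -0.164 without its replicate 1. Without its replicate 1 the tomato median was 0.534 over 8 clones, because METK1-B and METK1-I entered. Over the same 6 clones as above it was 0.364. Among all clones of the same species the METK1 median stood at percentile 89.2 in N. benthamiana, 85.4 in tobacco, 73.5 in petunia, 66.8 in tomato and 40.1 in pepper.

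**Figure D1:**
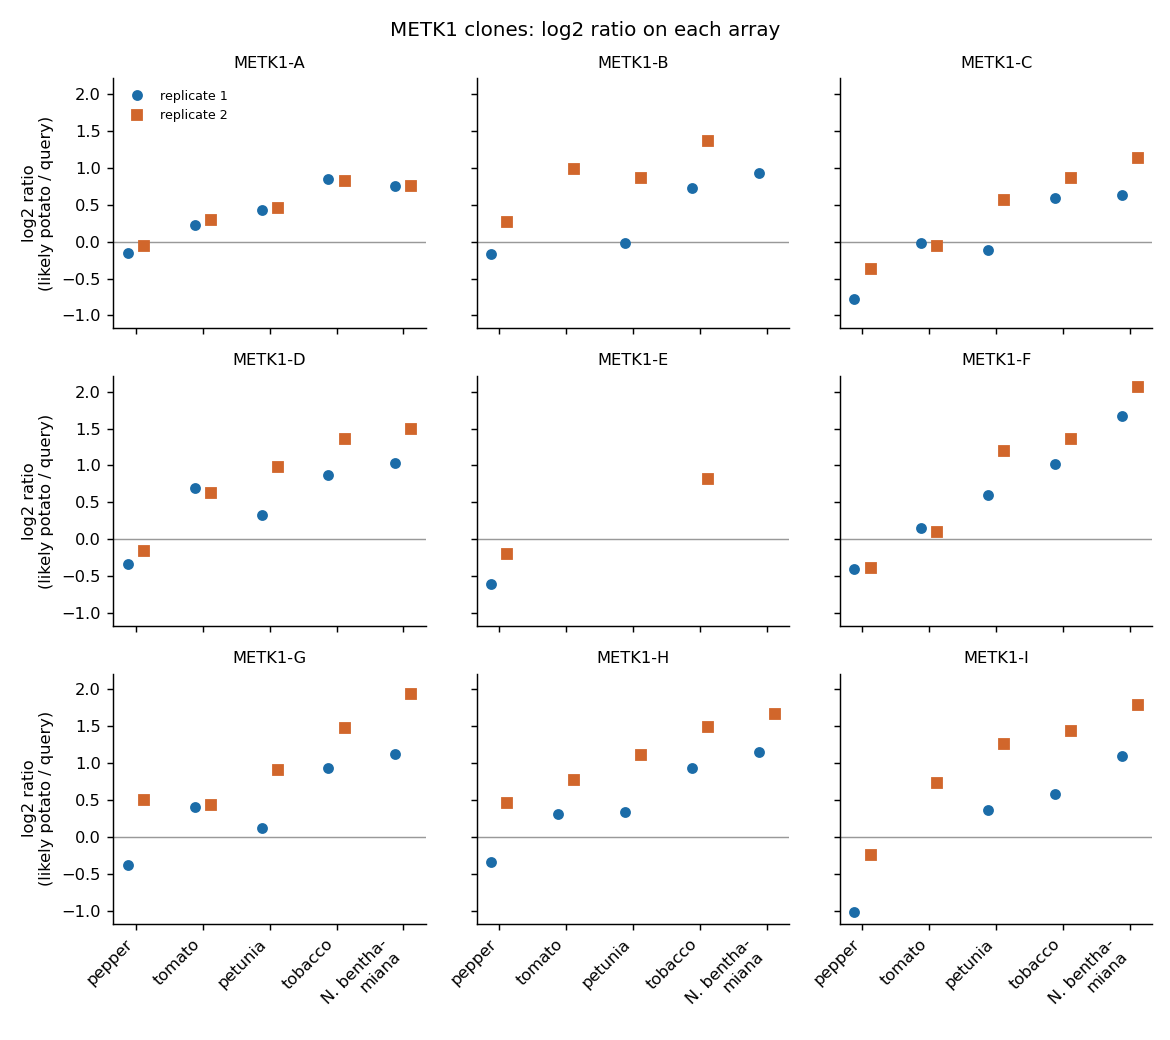
Log2 ratio (vertical axis, likely potato over query species) of each METK1 clone on each array, by query species; circles are replicate 1 and squares replicate 2, each the mean of the clone's spots, and no error bar is drawn. The 6 fully measured clones have their tomato and pepper points below all their tobacco and N. benthamiana points, and METK1-F spans the widest range of species means, 2.26.

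METK1-F had the largest differences among species. Its log2 ratios in replicates 1 and 2 were 1.67 and 2.06 in N. benthamiana, 1.01 and 1.36 in tobacco, 0.60 and 1.20 in petunia, 0.16 and 0.10 in tomato, and -0.41 and -0.38 in pepper. The ranges of N. benthamiana, of tomato and of pepper overlapped with those of no other species, and petunia overlapped with tobacco.

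METK1-D had tomato and petunia at nearly the same mean. Its values were 1.03 and 1.4965 in N. benthamiana, 0.87 and 1.36 in tobacco, 0.32 and 0.985 in petunia, 0.70 and 0.63 in tomato, and -0.33 and -0.16 in pepper. Tomato lay within the range of petunia here, and both pepper arrays were below all others.

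METK1-C had the lowest mean of the 6 fully measured clones in 4 of 5 species, all but N. benthamiana. It gave 0.63 and 1.14 in N. benthamiana, 0.59 and 0.86 in tobacco, -0.11 and 0.57 in petunia, -0.02 and -0.06 in tomato, and -0.77 and -0.37 in pepper. Pepper was again below the 8 other arrays, while tomato lay within the range of petunia.

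METK1-A had the narrowest range of species means, 0.95. Its values were 0.76 and 0.75 in N. benthamiana, 0.85 and 0.83 in tobacco, 0.43 and 0.45 in petunia, 0.23 and 0.29 in tomato, and -0.16 and -0.06 in pepper. No species overlapped with another in this clone, and tobacco, not N. benthamiana, was the highest.

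METK1-G and METK1-H ran close to each other. METK1-G gave 1.12 and 1.94 in N. benthamiana, 0.93 and 1.47 in tobacco, 0.11 and 0.90 in petunia, 0.40 and 0.43 in tomato, and -0.38 and 0.49 in pepper. METK1-H gave 1.15 and 1.67 in N. benthamiana, 0.93 and 1.49 in tobacco, 0.34 and 1.10 in petunia, 0.30 and 0.77 in tomato, and -0.34 and 0.45 in pepper. In both clones the pepper range reached into the tomato and petunia ranges and stayed below both Nicotiana species.

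The other clones lacked values on some arrays. METK1-I gave 1.09 and 1.79 in N. benthamiana, 0.58 and 1.43 in tobacco, 0.37 and 1.26 in petunia, 0.72 in tomato replicate 2, and -1.02 and -0.25 in pepper. METK1-B gave 0.93 in N. benthamiana replicate 1, 0.73 and 1.36 in tobacco, -0.01 and 0.86 in petunia, 0.98 in tomato replicate 2, and -0.16 and 0.27 in pepper. METK1-E had 0.81 in tobacco replicate 2 and -0.61 and -0.20 in pepper, and no value in the other species. Pepper gave the lowest mean in each of these clones, and in METK1-B its range overlapped with petunia only.

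The first comparison asked whether METK1 signal differed between potato and each query species. Each ratio was tested against 0 with limma, a linear model that shares the estimate of spread across all clones and arrays, with Benjamini-Hochberg adjustment over all clones tested and a threshold of 0.05. In N. benthamiana 7 of 7 METK1 clones were called with a positive ratio, where 29.3% of all clones were. METK1-F was the largest at 1.86 (SE 0.18, limma adjusted p = 4.07e-05) and METK1-A the smallest at 0.76 (SE 0.12, adjusted p = 0.000751). In tobacco 8 of 8 clones were called with a positive ratio, against 28.9% of all clones, from METK1-C at 0.73 (adjusted p = 0.0128) to METK1-H at 1.21 (adjusted p = 0.00384). Tobacco replicate 2 was the array with the higher tobacco value in 7 of 8 clones. On tobacco replicate 1 alone the METK1 median was 0.86, and fewer clones were called in tobacco. Here and below, the share of all clones called with an array left out is not given. Such losses of calls can therefore not be set against those of all clones.

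In petunia 4 of 8 clones were called with a positive ratio, against 28.9% of all clones, which were METK1-A (0.44, adjusted p = 0.0131), METK1-D (0.65, adjusted p = 0.0194), METK1-F (0.90, adjusted p = 0.00227) and METK1-H (0.72, adjusted p = 0.0402) by limma. METK1-I had a mean of 0.82 with an adjusted p of 0.0502 in the limma fit. With the replicate number, taken to mark a shared potato extract, as a random block in limma, its adjusted p was 0.0112. That fit called 5 of 8 (29.7% of all clones). Without petunia replicate 2 none of the 8 clones was called.

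In tomato 1 of 6 clones was called, METK1-D at 0.67 (SE 0.20, limma adjusted p = 0.0207), where 26.0% of all clones were called with a positive ratio. METK1-H, at 0.54, had an adjusted p of 0.115 and of 0.0424 with the replicate block in limma, which called 2 of 6 (26.9% of all clones, positive). In pepper 1 of 9 clones was called, METK1-C at -0.57 (SE 0.20, limma adjusted p = 0.0364), where 28.8% of all clones were called with a negative ratio. METK1-I, at -0.64, was called too with the replicate block (limma adjusted p = 0.0357), so that 2 of 9 were (29.4% of all clones, negative). The single call was lost without either tomato array in tomato, and without any 1 of the pepper and tomato arrays in pepper. The 95% intervals of the pepper ratios ran from -1.35 at the lowest to 0.69 at the highest, so they leave room for differences of this size in single clones.

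Over the mean of the 5 query species, 8 of 8 METK1 clones were called with a positive ratio, with a median of 0.69 and a range from 0.25 in METK1-C to 0.79 in METK1-H. The same call was made for 38.7% of all clones. METK1-B and METK1-I entered with 1 array for some species. All arrays of a replicate are taken to share 1 potato extract. With the replicate block 7 of 8 clones were called (33.5% of all clones), and METK1-C, at 0.25, was not (limma adjusted p = 0.124). Without tomato replicate 2, 5 of the 6 clones that could be tested were called.

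The second comparison asked whether the query species differed from each other. If same-numbered arrays share a potato extract, potato and any effect of the dyes cancel in these differences when all arrays are used. With an array of either species left out, the extracts then no longer balance. The limma F test called 4 of the 6 METK1 clones with a value on all arrays, METK1-F (adjusted p = 0.00193), METK1-A (adjusted p = 0.0124), METK1-D (adjusted p = 0.0166) and METK1-C (adjusted p = 0.0172), where 37.4% of all clones were called. METK1-G had an adjusted p of 0.0626 and METK1-H of 0.0756 in the same limma test. Under the replicate block 6 of 6 were called, and so were 68.2% of all clones. Without pepper replicate 1 the F test called 1 of 6.

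Between pairs of query species, 16 of 69 METK1 tests were called, against 13.3% of tests over all clones in the 10 pairs. Blocking on the replicate raised this to 40 of 69, against 28.5%. The 16 calls lay between pepper and tobacco, N. benthamiana or petunia, and between tomato and both Nicotiana species.

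N. benthamiana had a higher ratio than pepper in 7 of 7 clones, by 0.86 to 2.26 (1.82-fold to 4.79-fold), and 7 were called, where 7.89% of all clones were called in this direction. METK1-F differed by 2.26 (95% interval 1.69 to 2.83, limma adjusted p = 0.00131) and METK1-H, the least certain, by 1.35 (0.51 to 2.19, limma adjusted p = 0.0418). Within replicate 1 the differences ran from 0.92 to 2.11 and within replicate 2 from 0.81 to 2.44. The count was 1 without pepper replicate 1 and 2 of 8 without N. benthamiana replicate 2.

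Tobacco had a higher ratio than pepper in 8 of 8 clones, by 0.95 to 1.64. METK1-A, METK1-C, METK1-D, METK1-F and METK1-I were called, 5 in all, where 7.41% of all clones were called in this direction, and 8 of 8 were called with the replicate block (15.5% of all clones). Within replicate 1 the differences were 0.89 to 1.60 and within replicate 2 they were 0.88 to 1.74. Without tobacco replicate 2 there was no call in this pair, without pepper replicate 1 there was 1, and without tobacco replicate 1 or pepper replicate 2 there were 2.

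Tomato also lay below both Nicotiana species. N. benthamiana exceeded tomato by 0.50 to 1.74 in 6 of 6 clones, with 1 called, METK1-F at 1.74 (95% interval 1.16 to 2.31, limma adjusted p = 0.00297), where 9.52% of all clones were called in this direction. The replicate block raised this to 6 of 6, against 17.5%. Tobacco exceeded tomato by 0.45 to 1.06 in 6 of 6 clones, with METK1-A and METK1-F called (10.8% of all clones), and 5 of 6 with the replicate block (18.1%). Neither call between tobacco and tomato was kept without a tomato or a tobacco array, and 1 was called without any 1 of the pepper and petunia arrays.

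Neighbours in the order of species were not told apart by the fit without the block. Between N. benthamiana and tobacco 0 of 7 clones were called by limma (0.665% of all clones, either direction) and 1 had an unadjusted p under 0.05, METK1-F with 0.68 (95% interval 0.11 to 1.25, limma adjusted p = 0.308). Between tobacco and petunia 0 of 8 were called (2.92% of all clones) and 1 had an unadjusted p under 0.05, although the ratio was higher in tobacco in 8 of 8 clones, by 0.19 to 0.69. Between petunia and tomato 0 of 6 were called (22.5%) and 1 had an unadjusted p under 0.05, with differences from -0.01 to 0.77. Between tomato and pepper 0 of 6 were called (17.1%) and 1 had an unadjusted p under 0.05, with differences from 0.36 to 0.92. Their 95% intervals reached up to 1.44, 1.59, 1.34 and 1.55 in these pairs, so they do not show that neighbours have the same level. Counts with the replicate block were 0, 0, 1 and 2 clones, against 5.78%, 14.3%, 41.0% and 35.1% of all clones.

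The pairs that skip a step differed in the same direction. Petunia exceeded pepper by 0.37 to 1.45 in 8 of 8 clones, and METK1-F was called at 1.30 (limma adjusted p = 0.0103), where 8.72% of all clones were called in this direction. This call was lost without either pepper array and without petunia replicate 2. With the replicate block 6 of 8 were called, against 16.8%. N. benthamiana exceeded petunia by 0.32 to 1.02 in 7 of 7 clones, with 0 called by limma (5.44% of all clones, either direction), 3 at an unadjusted p under 0.05 and 5 called with the replicate block (17.7%).

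**Figure D2:**
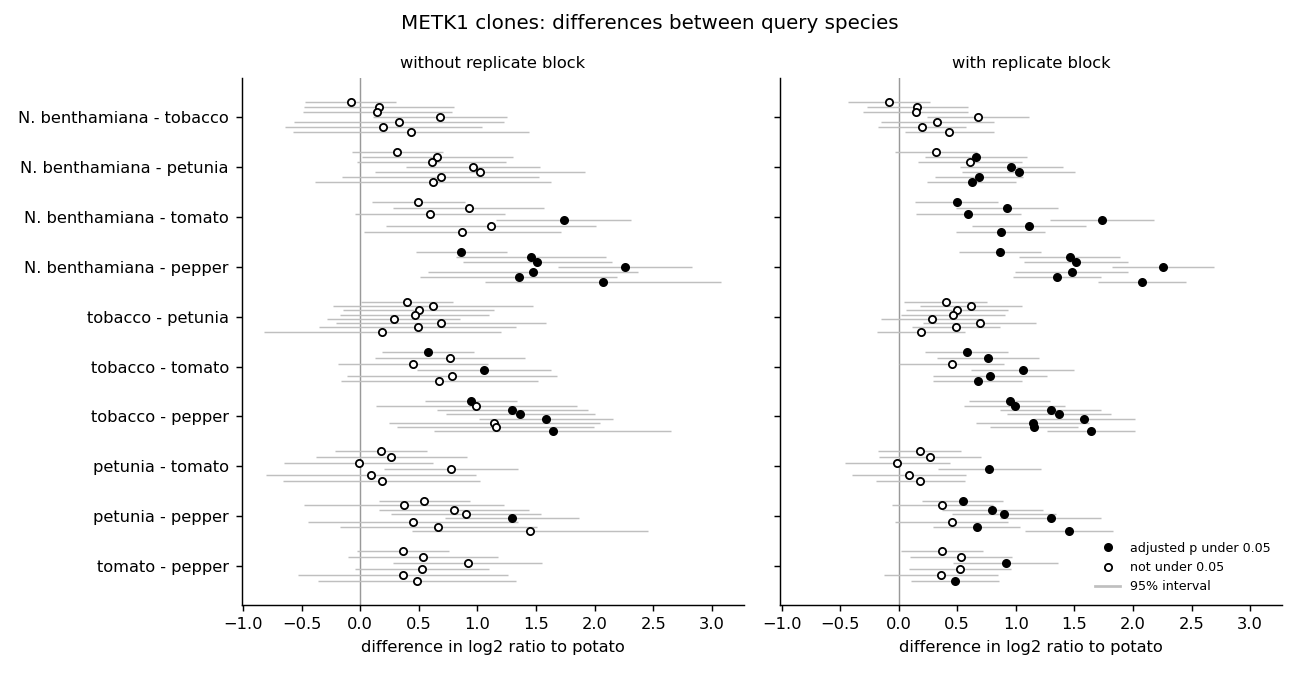
Difference in log2 ratio between query species (horizontal axis, first species minus second) for each METK1 clone, without the replicate block on the left and with it on the right; points are clones in the order A to I from top to bottom, filled where the limma adjusted p is under 0.05, and grey lines are 95% intervals. The points do not move between the panels while the intervals narrow, and the filled points rise from 16 to 40 of 69.

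The same split can be read from the array values without a model. These are the values used above, so this gives no separate support. In 6 of 6 clones with values on these arrays, all pepper and tomato arrays had lower ratios than all tobacco and N. benthamiana arrays, as was found for 8.34% of all clones. Both pepper arrays were below the 8 other arrays in 4 of 6 METK1 clones, METK1-A, METK1-C, METK1-D and METK1-F, against 9.18% of all clones. Petunia was below all Nicotiana arrays in 3 of 7 clones, against 13.8%.

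METK1 differed between replicates as well. In replicate 2 the ratio was higher than in replicate 1 in 9 of 9 pepper clones (median difference 0.41), 7 of 8 tobacco clones (0.52), 6 of 7 N. benthamiana clones (0.51) and 8 of 8 petunia clones (0.72). Among all clones the share higher in replicate 2 was 46.5% (pepper), 47.4% (tobacco), 47.1% (N. benthamiana) and 48.7% (petunia). Tomato stood apart, with 3 of 6 METK1 clones higher in replicate 2, a median difference of 0.00 and 45.3% of all clones higher. The 5 replicate 2 arrays are taken to share their potato extract, so these differences cannot be taken as independent of each other. The part of the potato extract in them was not tested.

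**Figure D3:**
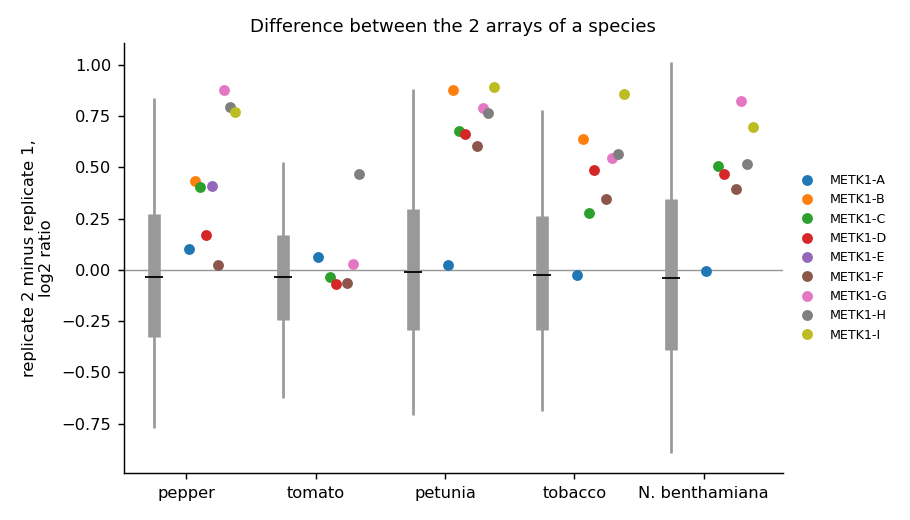
Difference in log2 ratio between the replicate 2 and replicate 1 array of each query species (vertical axis); coloured points are METK1 clones, grey boxes the interquartile range of all clones, thin lines their 5% to 95% range and black marks their median. Outside tomato most METK1 points lie above the grey boxes, and METK1-A stays within 0.10 of 0 in each species.

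Not all clones shared this difference. METK1-A moved by -0.03 to 0.10 between replicates in each of the 5 species, while METK1-I moved by 0.70 to 0.89 in the 4 species where it had both arrays. METK1-G moved by 0.79 in petunia, 0.82 in N. benthamiana and 0.88 in pepper, but by 0.03 in tomato. METK1-A also had spots up to 0.57 apart, a gap exceeded in METK1-I only (0.58), against at most 0.25 in the other clones.

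The clones kept some order among themselves within an array. Against the median of the other 5 fully measured clones, METK1-C was lower on 10 of 10 arrays, by 0.32 to 0.53, and METK1-H was higher on 10 of 10, by 0.02 to 0.62. METK1-F changed sides: it was above the others by 0.60 in N. benthamiana and by 0.29 in petunia, and the difference was -0.24 in tomato and -0.20 in pepper. METK1-A did the reverse, with 0.17 in pepper and -0.64 in N. benthamiana. METK1-D stood above the others in tomato, by 0.41. The pooled SD among the 6 clones on an array was 0.32, near the pooled SD of 0.38 between the arrays of a species.

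The methionine cycle around METK1 was represented by few clones. Of 19 symbols listed for the cycle, 3 were found as a single symbol, with 8 clones. MS, taken as methionine synthase, which makes methionine from homocysteine, had 5 clones. ARD, taken as acireductone dioxygenase, which acts in the salvage of methionine from methylthioadenosine, had 1. CBL had 2, and the symbol is in use both for cystathionine beta-lyase, which forms homocysteine, and for calcineurin B-like calcium sensors, which the table does not tell apart. None of 22 symbols for enzymes that use S-adenosylmethionine and none of 8 symbols for other synthetases was found.

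In the mean of species, methionine synthase had the opposite sign to METK1, while in pepper both medians were negative. In the mean of the 5 query species, 5 of 5 MS clones had a negative ratio and were called, from -0.70 in MS-D to -1.55 in MS-B (SE 0.07, limma adjusted p = 7.24e-08), that is likely more signal in the query species than in potato. The call was made for 41.4% of all clones in this direction. With CBL-B at -0.36 (limma adjusted p = 0.00186), 6 of the 7 testable clones of the list were called negative, and the median of the 7 was -0.89. With the replicate block 6 of 7 were called negative too, CBL-B with a limma adjusted p of 0.0243. The share of all clones called negative in that fit is not given here. MS arrays ranged from -1.80 to -0.72 in pepper, -1.501 to -0.33 in tomato, -1.91 to -0.44 in petunia, -1.27 to -0.14 in tobacco and -1.92 to -0.39 in N. benthamiana. These ranges, which pool 5 clones at different levels, overlap in all 5 species. Within single clones, both petunia arrays were below all others in MS-A (-1.51 and -1.40). Both tobacco arrays were above all others in MS-B (-1.06 and -1.27) and MS-E (-0.81 and -0.91). In MS-C and MS-D no species stood apart at either end. The F test called MS-A (limma adjusted p = 0.0477) and none of the 4 other MS clones, where 37.4% of all clones were called. With the replicate block it called 4 of 5, against 68.2% of all clones.

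ARD had nearly the reverse order of METK1. Its ratios in replicates 1 and 2 were 1.60 and 0.89 in pepper, 0.56 and 0.03 in petunia, 0.11 and -0.16 in tomato, -0.21 and -0.27 in N. benthamiana, and -0.75 and -0.92 in tobacco. It was called against potato in pepper (1.24, limma adjusted p = 0.000757, where 27.4% of all clones were called positive) and in tobacco (-0.83, limma adjusted p = 0.00592, where 29.6% were called negative), and it differed among query species (limma F test, adjusted p = 0.00541). Pepper was above all other arrays and tobacco below them, with no overlap.

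CBL shared the low pepper ratio with METK1 but not the rest of the order. CBL-A was at -0.97 and -1.04 in pepper, at -0.08 and -0.04 in tomato and at -0.68 in petunia replicate 2. It had no value in tobacco and N. benthamiana. CBL-B was at -0.97 and -1.10 in pepper, -0.89 and -0.79 in petunia, 0.21 and -0.01 in tomato, 0.36 and 0.03 in tobacco, and 0.07 and -0.55 in N. benthamiana. Pepper and petunia lay below all other arrays in CBL-B, and the clone differed among species (limma F test, adjusted p = 0.0121). In all, the F test called 3 of the 7 testable clones of the list, against 37.4% of all clones. With the replicate block it called 6 of 7, against 68.2% of all clones.

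**Figure D4:**
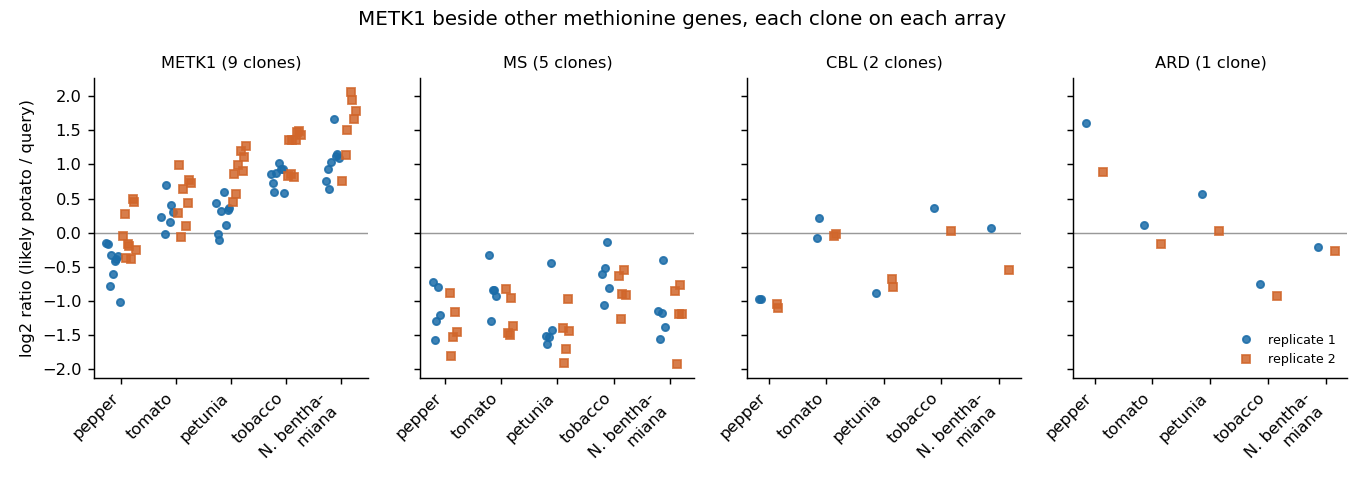
Log2 ratio (vertical axis, likely potato over query species) of the clones of METK1, MS, CBL and ARD on each array, by query species; circles are replicate 1 and squares replicate 2, 1 point per clone and array. METK1 climbs from pepper to N. benthamiana, all MS points are below 0, and ARD is highest in pepper.

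Most replicate differences of these genes had the opposite direction to those of METK1. Replicate 2 was higher than replicate 1 in 3 of 25 MS differences, 2 of 7 CBL differences and 0 of 5 ARD differences. Among all clones the share was 45.3% (tomato) to 48.7% (petunia). Clones of a gene share the same arrays, so these counts are not independent measurements, and their cause was not tested.

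The pattern of METK1 over the 10 arrays was compared with that of 367 other genes with a single symbol, by Pearson's r with the mean of the 6 fully measured clones. The arrays come in pairs and are taken to share potato extracts, so r is a description only. The median r of all genes was 0.02, and 3 genes had an r over 0.9. IAA3, an Aux/IAA repressor of auxin responses, was the most alike in pattern (r = 0.960). It rested on 1 clone and had a root mean square difference of 0.22 from METK1. Its mean ratios were 1.62 in N. benthamiana, 1.14 in tobacco, 0.44 in petunia, 0.38 in tomato and -0.19 in pepper. LOC102588383 (r = 0.916), LOC102577529 (r = 0.907), LOC102577657 (r = 0.884) and LOC102591352 (r = 0.867) followed, with root mean square differences of 0.60, 1.04, 0.60 and 0.87. ARD was near the other end, at r = -0.845.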

How the data were processed

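Leaf RNA of 5 query species was compared with potato leaf RNA on 10 potato cDNA arrays, 2 per species. The authors extracted signals with GenePix, left out spots that were not found, saturated or small, subtracted the local background and applied quantile normalization in limma (the sources used here give no version). Deposited per spot were log2 ratios. The positive ones are the negated log2 of ratios given in steps of 0.01 (100% of them, within 0.002), and such a ratio would be query over potato in the direction taken here. At the highest METK1 spot (2.12, a ratio of 0.23) 1 step is 0.064. No value column was left unmapped.

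The spots of a clone were averaged, and the layout of duplicates was checked on 905 of 905 pairs with a common sequence record. Of 15360 clone positions, 14455 had no gene symbol and 90 had several. Models were fitted with limma 3.58.1 under R 4.3.3, with 1 coefficient per query species over all 10 arrays, eBayes and Benjamini-Hochberg adjustment at 0.05. Clones needed a value on both arrays of a species for a species or pair, 1 for each species for the mean, and all 10 for the F test (7823 clones). Python 3.11.15 and pandas 2.3.3 were used for counts. The fit without the block was tried on simulated data with independent arrays. That trial does not cover arrays paired by replicate number, or the fits with the block.

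Same-numbered arrays are taken, from their labels, to share a potato extract. Their deviations from species means correlated at 0.293 to 0.679 in the 10 pairs of species across 7823 clones. The replicate numbers were therefore used to pair the arrays. The replicate block was random in tests against potato and of the mean (consensus correlation 0.375) and fixed in the F test and pairs.

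All METK1 clones, all list members and the 5 genes most alike were named. Lists were matched by symbol only. The members and lists were chosen with earlier results of these data known. Alternatives were centring, scaling, spots, missing values, the block and leaving out each array. Precision is limited by the number of arrays. Signals of single channels and probe sequences were not used here.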

Additional observations from a re-analysis of the deposited data

Results flagged for a closer look

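Differences among query species passed the limma test of the difference itself in 4 METK1 clones, with F test adjusted p of 0.012 in METK1-A, 0.017 in METK1-C, 0.017 in METK1-D and 0.0019 in METK1-F. Between pairs of species, N. benthamiana exceeded pepper by 0.86 in METK1-A, 1.46 in METK1-C, 1.51 in METK1-D, 2.26 in METK1-F, 1.48 in METK1-G, 1.35 in METK1-H and 2.07 in METK1-I on the log2 scale. Tobacco exceeded pepper by 0.95 in METK1-A, 1.30 in METK1-C, 1.37 in METK1-D, 1.58 in METK1-F and 1.64 in METK1-I. Tobacco exceeded tomato by 0.58 in METK1-A and 1.06 in METK1-F. METK1-F alone passed the test between N. benthamiana and tomato, by 1.74, and between petunia and pepper, by 1.30, a call that was lost without either pepper array and without petunia replicate 2. No group had 4 or more arrays, so single outlying arrays were not tested.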

How the results depend on the processing

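No METK1 value that was called reversed its sign. Of 1695 clone values under the alternatives, 1559 kept their direction and side of the threshold, 81 fell short of it and 55 passed it only there. With the replicate block, METK1 calls rose to 2 in tomato, 2 in pepper and 40 between pairs. Calls of the methionine list by the F test rose to 6 of 7, where 68.2% of all clones were called. Scaling the arrays gave 2 calls in pepper. Centring, complete spots and the other rule for missing values moved no count by over 1.5 times. With 1 array left out in turn, METK1 calls ran from 0 to 1 in tomato, 0 to 1 in pepper, 3 to 8 in tobacco, 5 to 7 in N. benthamiana, 0 to 5 in petunia, 5 to 8 for the mean of species, 1 to 5 for the F test and 4 to 17 between pairs. Pair calls were 4 without pepper replicate 1, 7 without tobacco replicate 2, 9 without tobacco replicate 1 and 10 without pepper replicate 2. The median log2 ratio of METK1 ran from 0.267 to 0.534 in tomato, 0.331 to 0.943 in petunia, -0.382 to -0.164 in pepper, 0.864 to 1.362 in tobacco and 1.059 to 1.666 in N. benthamiana. In tomato, tobacco and N. benthamiana further clones entered when 1 of the arrays was left out, so these medians do not all cover the same clones. A species left with 1 array was assumed to vary like the others. The share of all clones called with an array left out is not given here. The cause of these changes was not tested. The number of arrays, 2 per species, limits all of them.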
